A study of Mus musculus with 16 samples.

Results

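Glutamate receptors and the auxiliary subunits that bind them were read in nuclei of the mouse hippocampus. The set holds 32 of the 32285 genes in the files, chosen by symbol: 4 AMPA receptor subunits (Gria1 to Gria4), 5 kainate receptor subunits (Grik1 to Grik5), 7 NMDA receptor subunits (Grin1, Grin2a to Grin2d, Grin3a and Grin3b), the delta receptor Grid1, 7 metabotropic receptors (Grm2 to Grm8), 6 transmembrane AMPA receptor regulatory proteins, or TARPs (Cacng2, Cacng3, Cacng4, Cacng5, Cacng7 and Cacng8), and the kainate receptor partners Neto1 and Neto2. Each symbol matched 1 gene. Single-nucleus RNA sequencing covered 16 female mice aged 9 months, and the labels cross 2 Ch25h genotypes with 2 tau states, 4 mice each. Mice with Ch25h were Tau- or Tau+ (Ch25h+/+ Tau- and Ch25h+/+ Tau+), and so were mice without it (Ch25h-/- Tau- and Ch25h-/- Tau+). Ch25h encodes cholesterol 25-hydroxylase, and -/- stands for its loss. The labels do not say which tau line or promoter the Tau+ mice carried, nor from which cells Ch25h was deleted. The study's title ties CH25H to innate immune activation and tau pathology.

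AMPA, kainate and NMDA receptors are ion channels built of several subunits that open when glutamate binds, and carry fast excitatory transmission. Metabotropic receptors act through G proteins, at slower speed, on both sides of the synapse and on glia. TARPs set the trafficking and gating of AMPA receptors, and Neto proteins do so for kainate receptors, so a cell's receptor response depends on subunits and partners together.

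The libraries held 51270831 to 84870650 unique molecular identifiers (UMIs, counts of captured RNA molecules), with 7601 to 10567 nuclei kept and a median of 3642.5 to 6253 UMIs per nucleus. Clusters were named from marker genes, and 9 classes had enough nuclei in every library to be tested: DG granule neurons (of the dentate gyrus), pyramidal neurons of CA1 and of CA3, inhibitory and other excitatory neurons, microglia, astrocytes, oligodendrocytes and their precursors. Of the 136828 nuclei kept, 2321 barcode sequences occurred in more than 1 library, and any pair of libraries shared 8 to 36. Ch25h itself, read over all nuclei, did not fall in the libraries labelled Ch25h-/- (76 and 96 UMIs in Tau- and Tau+ against 38 and 94 in Ch25h+/+), so the genotypes rest on the labels. Replicates 1 and 2 stood apart from replicates 3 and 4 on the first principal component of deviations from the group means, for all 16 libraries in 8 classes and 15 in microglia. The labels name no cause for that division, and each group held 2 libraries on either side. Between the sides 29 of the 227 pairs of a gene of the set and a class differed, 12.8%, where 13.7% of all pairs did.

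3 genes of the set were higher in Tau+ astrocytes and have a start site in the RefSeq promoter table, which matched 21 of the 32 genes. The sequences ahead of those starts are shown so that the genes can be compared. They are read on the minus strand, 5′ to 3′, up to the base before the annotated gene (GRCm38.p6), and capitals mark the AP-1 motif TGANTCA.
Grik4 (chr9:42944494-42944621): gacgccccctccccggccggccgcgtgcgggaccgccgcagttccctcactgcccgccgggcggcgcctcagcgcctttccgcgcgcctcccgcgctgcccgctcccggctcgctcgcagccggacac
Neto2 (chr8:85700925-85701174): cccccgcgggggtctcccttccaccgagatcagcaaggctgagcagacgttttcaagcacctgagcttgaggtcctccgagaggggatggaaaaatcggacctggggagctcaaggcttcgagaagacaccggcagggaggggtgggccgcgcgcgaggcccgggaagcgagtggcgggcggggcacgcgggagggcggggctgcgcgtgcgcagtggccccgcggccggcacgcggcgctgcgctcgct
Cacng5 (chr11:107915056-107915305): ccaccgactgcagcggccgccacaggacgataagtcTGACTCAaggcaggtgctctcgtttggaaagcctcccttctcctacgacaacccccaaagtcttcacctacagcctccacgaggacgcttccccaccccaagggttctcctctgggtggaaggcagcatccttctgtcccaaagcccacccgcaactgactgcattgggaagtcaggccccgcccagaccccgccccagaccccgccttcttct
In the 250 bases before the start, the AP-1 motif, which reads the same on both strands, occurred once for Cacng5, 214 bases before its start, and not for Grik4 or Neto2. Of all 32851 windows of that length in the table, 6.75% held it. The STAT motif TTCNNNGAA occurred in none of these 3 windows and in 7.02% of all. GC content was 69.6% for Grik4, 72% for Neto2 and 62% for Cacng5, against a median of 52.4%. For Grik4 the 250 bases run on into the annotated gene, and those further bases are counted in these values but not shown. These are descriptions of letters, and no binding was measured.

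The first question was where each gene was read. Levels are UMIs scaled to the total of a class in a library, in CPM, given as the mean ± SD over the 16 libraries, and are compared between classes for 1 gene at a time because gene length affects counts between genes. Orders of classes are over the 9 classes tested, without the small ones. Free RNA in the droplets adds UMIs to every class, so the share of a value that the profile of near-empty droplets could account for is given where it is high. Of the 32 genes, 7 were highest in CA1 pyramidal neurons, 6 each in inhibitory neurons and oligodendrocyte precursors, 5 in other excitatory neurons, 4 in CA3 pyramidal neurons, 2 in DG granule neurons and 1 each in astrocytes and oligodendrocytes. For 13 of the 32, every library of the highest class lay above every library of the next. The share of all genes for which this holds was not computed, so the count does not set these genes apart. Grm6, the receptor of retinal bipolar cells, had 10 UMIs in all nuclei, and Grin3b, an NMDA subunit best known from motor neurons, had 253. Neither could be tested in any class, and both are counted above under oligodendrocyte precursors, at means within their spread of the next class, so 4 precursor genes remain without them.

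**Figure D1:**
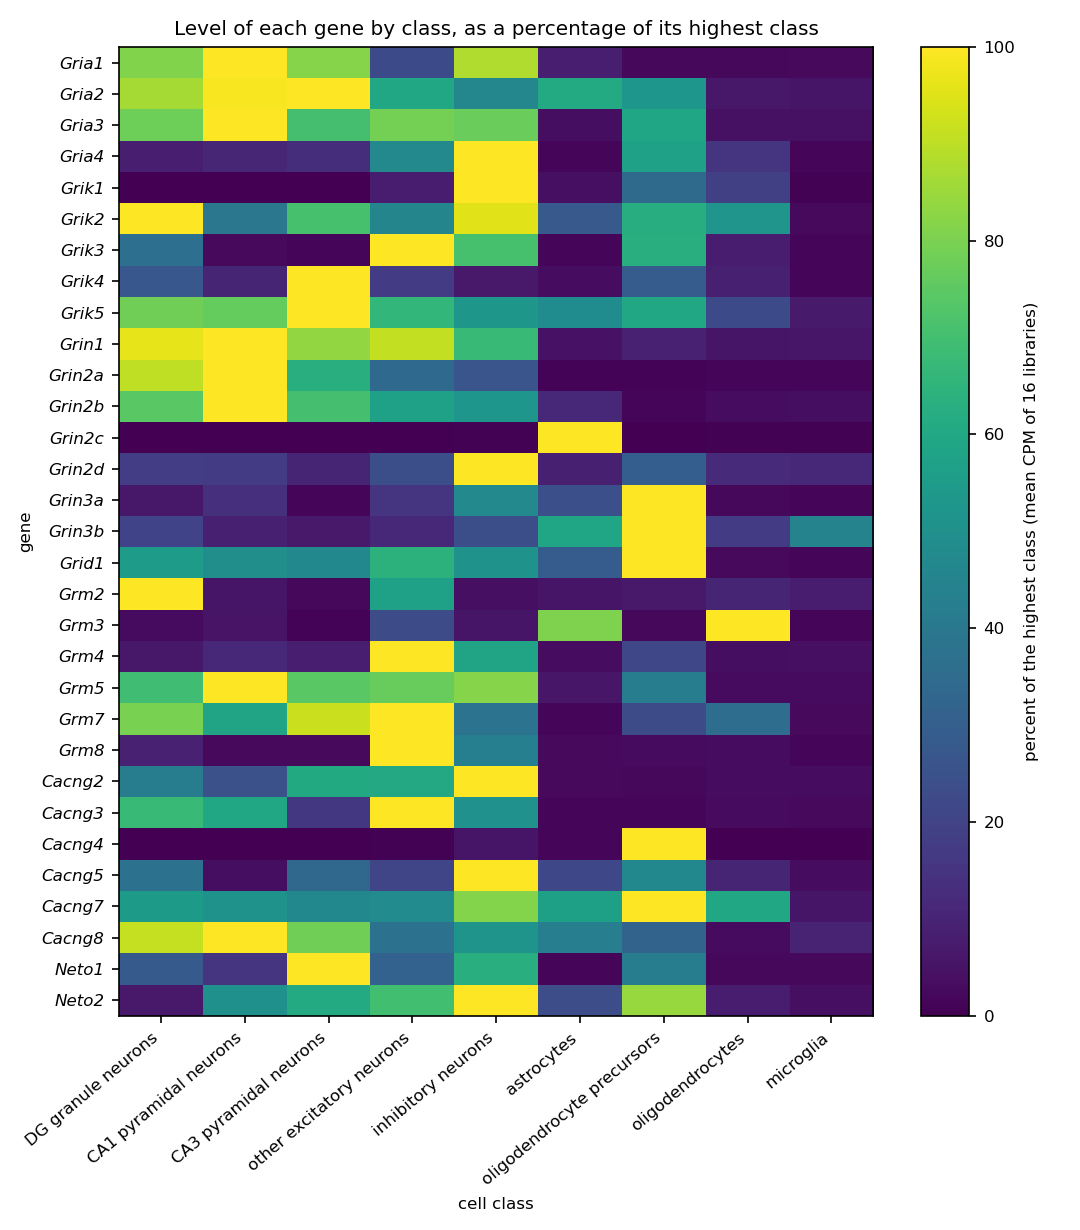
Colour gives the mean level of 31 genes (rows, without Grm6) in the 9 classes (columns), as a percentage of the gene's highest class, from CPM means of 16 libraries. Grin2c stands alone in astrocytes and Cacng4 in oligodendrocyte precursors, while Grin1 and Grm5 are spread over all 5 neuron classes.

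Among AMPA receptor subunits, Gria4 was highest in inhibitory neurons, with 1400.4 CPM in the lowest library, a median of 1741 and 1900.0 in the highest, against 969.7 ± 67.3 CPM in oligodendrocyte precursors, 798 ± 91.9 CPM in other excitatory neurons and 184 ± 45.3 CPM in CA1 pyramidal neurons. Gria2, whose edited protein makes the channel impermeable to calcium, went the other way, with 2687 ± 137 CPM in CA3 and 2659.6 ± 105 CPM in CA1 pyramidal neurons, which differed by less than their spread, and 1247 ± 202 CPM in inhibitory neurons. Astrocytes read Gria2 at 1639 ± 140.2 CPM, about the level of other excitatory neurons (1613 ± 87.97 CPM), while Gria3 in astrocytes was 35.2 ± 8.66 CPM with 82.2% of it within the free RNA estimate. Gria1, the subunit added to synapses in CA1 potentiation, was 3134 ± 209 CPM in CA1, 2759 ± 269.5 CPM in inhibitory and 704 ± 109.5 CPM in other excitatory neurons. Within other excitatory neurons Gria4 ran from 428 ± 35.7 CPM in the deep-layer clusters to 1668 ± 265 CPM in the upper-layer or entorhinal ones, with no overlap between libraries.

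Kainate receptors act before and after the synapse. Grik4, which encodes a high-affinity subunit, had 889 CPM in the lowest library, a median of 1043 and 1229 in the highest among CA3 pyramidal neurons. The next class, oligodendrocyte precursors, had 311 ± 26.4 CPM, and CA1 pyramidal neurons 109.9 ± 27.1 CPM. Neto1, a partner of these receptors, followed the same fields with 684 ± 65.3 CPM in CA3 and 102 ± 18.2 CPM in CA1. Grik1 was highest in inhibitory neurons (1322 ± 133 CPM, 1067 to 1596 CPM), and oligodendrocyte precursors (458 ± 44.6 CPM) and oligodendrocytes (249 ± 51.1 CPM) followed. In DG, CA1 and CA3 neurons it stayed at 3.63 ± 1.07 CPM, 3.57 ± 0.986 CPM and 4.05 ± 2.55 CPM, of which the free RNA estimate covered all, all and 86.99%. Grik3 was 170.3 ± 23.6 CPM in other excitatory and 121 ± 12.6 CPM in inhibitory neurons, against 4.27 ± 1.97 CPM in CA1. Among interneurons it was 182 ± 19.1 CPM in the Pvalb-like cluster and 3.96 ± 2.54 CPM in Lamp5 neurons. Grik2 was widespread, and its means in DG granule (2027 ± 142 CPM) and inhibitory neurons (1938 ± 232 CPM) differed by less than either SD. Neto2 was lowest of the neurons in DG granule neurons, at 7.15 ± 1.73 CPM with 48.2% free RNA, and highest in inhibitory neurons, at 105 ± 13.9 CPM.

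NMDA receptors need Grin1 with a second kind of subunit. Among the 5 neuron classes Grin1 ranged from 325 ± 36.96 CPM in inhibitory to 481 ± 45.8 CPM in CA1 pyramidal neurons, and the values of DG, CA1 and other excitatory neurons differed by less than the SD of CA1. In glia it was 24.4 to 43.8 CPM, with 80.2% inside the free RNA estimate in astrocytes and all in the other 3 glial classes. Grin2c had 190.4 CPM in the lowest library, a median of 265 and 351 in the highest in astrocytes. The next class, inhibitory neurons, had 1.88 ± 0.804 CPM, so the astrocyte mean was 144 times as high. Grin3a was highest in oligodendrocyte precursors (544 ± 54.4 CPM) and then in inhibitory neurons (255 ± 35.2 CPM). Grin2d was highest in inhibitory neurons (43.7 ± 6.09 CPM, against 12.99 ± 5.14 CPM in the next class). Among interneurons Grin2a was 2859 ± 236 CPM in Lamp5 neurons and 557 ± 83.4 CPM in Vip neurons, without overlap of the libraries. The delta receptor Grid1, which binds cerebellins rather than gating on glutamate, was 759 to 978 CPM in oligodendrocyte precursors and 469 to 641 CPM in other excitatory neurons.

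Among metabotropic receptors Grm3, a receptor that lowers cyclic AMP, was highest in oligodendrocytes (1535 ± 171 CPM) and astrocytes (1236 ± 146 CPM), whose difference was larger than either SD, and reached 357 ± 64.2 CPM in other excitatory neurons. Grm5, which couples to calcium release, was 2039 to 2939 CPM in the 5 neuron classes and 1237 ± 118 CPM in oligodendrocyte precursors, against 179 ± 87.2 CPM in astrocytes. Grm8, a presynaptic receptor, had 642 CPM in the lowest library, a median of 717 and 908 in the highest among other excitatory neurons and 318 ± 111 CPM in inhibitory neurons. Its deep-layer clusters read 1102 ± 73.04 CPM. Grm2 was 30.3 ± 3.79 CPM in DG granule neurons, whose mossy fibre terminals carry the receptor, and 0.662 ± 0.316 CPM in CA3. Among TARPs, Cacng4 had 478 CPM in the lowest library, a median of 564 and 700.3 in the highest in oligodendrocyte precursors, 17.4 times the mean of inhibitory neurons (33.3 ± 5.25 CPM), and 0.677 ± 0.471 CPM in oligodendrocytes. Cacng2, or stargazin, was highest in inhibitory neurons (134 ± 16.9 CPM), Cacng3 in other excitatory neurons (221 ± 22.8 CPM) and Cacng8 in CA1 (160.1 ± 22.04 CPM). The DG mean of Cacng8 (146 ± 20.2 CPM) lay within the SD of CA1. With the library as a block, edgeR's test called Cacng8 higher in CA1 than in DG (log2 fold change 0.18, SE 0.04, adjusted p = 1.48e-05).

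Comparisons between classes used edgeR's quasi-likelihood test with the library as a block. Most genes differed between classes, and the clusters were built from genes other than those of the set. The share over all genes therefore describes and tests nothing, and the counts say little on their own. In CA1 minus DG, 23 of 29 genes of the set differed (12 higher and 11 lower), where 68.5% of all genes did: 34% of all genes were higher and 34.4% lower. Neto2 was higher in CA1 (log2 fold change 2.96, SE 0.06, adjusted p = 7.72e-68), and Grm2 (log2 fold change -4.07, SE 0.11, adjusted p = 4.86e-56) and Grik3 (log2 fold change -3.89, SE 0.13, adjusted p = 2.73e-41) were lower. In CA3 minus CA1, 9 were higher and 13 lower, against 29% and 30.2% of all genes (59.3% in either direction). Grik4 led the higher ones (log2 fold change 3.34, SE 0.06, adjusted p = 3.13e-71), followed by Cacng5 (log2 fold change 3.04, SE 0.29, adjusted p = 1.10e-15) and Neto1 (log2 fold change 2.79, SE 0.06, adjusted p = 2.28e-63), and Grin3a the lower ones (log2 fold change -3.00, SE 0.11, adjusted p = 1.92e-40).

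In inhibitory neurons minus the mean of DG, CA1 and CA3, all 29 genes tested differed, 16 higher and 13 lower, against 40.7% and 37.7% of all genes (78.4% in either direction). Grik1 had the largest difference of the set (log2 fold change 8.31, SE 0.07, adjusted p = 1.67e-84), followed by Cacng4 (log2 fold change 6.30, SE 0.09, adjusted p = 8.87e-83), and Grik4 (log2 fold change -2.32, SE 0.05, adjusted p = 5.40e-63) and Grin2a (log2 fold change -1.79, SE 0.05, adjusted p = 2.01e-51) were lower. In oligodendrocyte precursors minus oligodendrocytes 20 were higher and 6 lower, against 34.5% and 35.3% of all genes (69.8% in either direction), with a median log2 fold change of 1.31 in the set and -0.04 over all genes. Cacng4 (log2 fold change 9.42, SE 0.10, adjusted p = 4.74e-90), Grin3a (log2 fold change 5.54, SE 0.12, adjusted p = 3.95e-56), Grid1 (log2 fold change 5.22, SE 0.06, adjusted p = 7.80e-87) and Neto1 (log2 fold change 4.34, SE 0.09, adjusted p = 1.78e-65) were higher, and Grm3 was lower (log2 fold change -5.57, SE 0.10, adjusted p = 2.83e-61).

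Ratios of subunit UMIs set the nuclear RNA of receptor subunits side by side within a cell class, without comparing totals. The ratio of Grin2a to Grin2b UMIs was 1.80 ± 0.186 in DG granule neurons, 1.49 ± 0.154 in CA1, 1.32 ± 0.118 in CA3 and 0.754 ± 0.104 in inhibitory neurons (mean ± SD, n = 16). The ratio of Gria2 to the sum of Gria1, Gria3 and Gria4 was 0.684 ± 0.0349, 0.626 ± 0.0280, 0.781 ± 0.0388 and 0.242 ± 0.0455 in the same order. Every inhibitory library lay below every library of the other 3 classes for both ratios. Gene length enters both ratios and no protein was measured, so they are compared between libraries and classes and not read as numbers of channels.

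**Figure D2:**
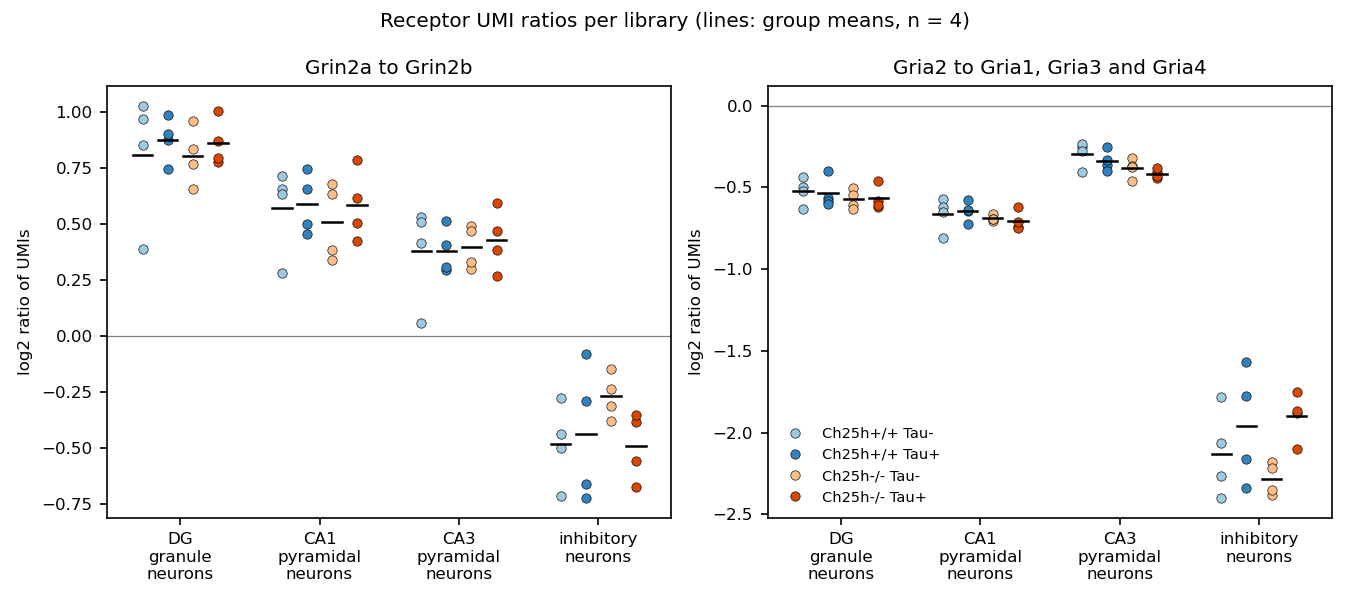
The y axes give the log2 ratio of UMIs per library in 4 neuron classes, coloured by group, with lines at group means (n = 4). Inhibitory neurons lie lowest in both ratios. Their Gria2 ratio is higher in all 4 Ch25h-/- Tau+ libraries than in the 4 Ch25h-/- Tau- libraries, while the Ch25h+/+ groups overlap.

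Whether tau or Ch25h loss moved these ratios was tested by exact permutation of the labels within the other factor, 16 two-sided tests over 4900 arrangements each, adjusted together. None passed. The smallest p was for Ch25h loss in CA3, where the Gria2 ratio differed by -0.08 log2 units (exact permutation p = 0.0143, adjusted p = 0.229). The other p under 0.05 was for tau in inhibitory neurons, where the Gria2 ratio was 0.28 log2 units higher in Tau+ (exact permutation p = 0.0408, adjusted p = 0.327). 1 inhibitory cluster was spread unevenly, making up 0.139 to 43.99% of inhibitory nuclei by library, and without it, in a fit added after seeing the data, the difference was 0.11 (exact permutation p = 0.0400, adjusted p = 0.320).

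What tau changed was asked next, as Tau+ minus Tau- within each Ch25h genotype and averaged over both. Averaged over both genotypes, 7 gene and class pairs of the 227 tested passed edgeR's adjusted p of 0.05, where 1.02% of all 118001 gene and class pairs did, and 46 were at an unadjusted p under 0.05, where 10.1% of all were. Of the 7 that passed, 5 were higher in Tau+ (Grik4, Neto2, Cacng5 and Grm5 in astrocytes and Grm3 in microglia) and 2 lower (Grid1 in astrocytes and Grin2b in microglia). In Ch25h+/+ alone 1 pair passed, Grik4 in astrocytes, against 0.231% of all pairs, with 17 pairs at an unadjusted p under 0.05 (6.51% of all pairs). In Ch25h-/- alone none passed, against 0.143%, with 44 pairs at an unadjusted p under 0.05 (8% of all pairs) and 4 called by DESeq2 (0.46% of all pairs). Over both genotypes the median log2 fold change was -0.02 in the set and 0.00 over all pairs.

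**Figure D3:**
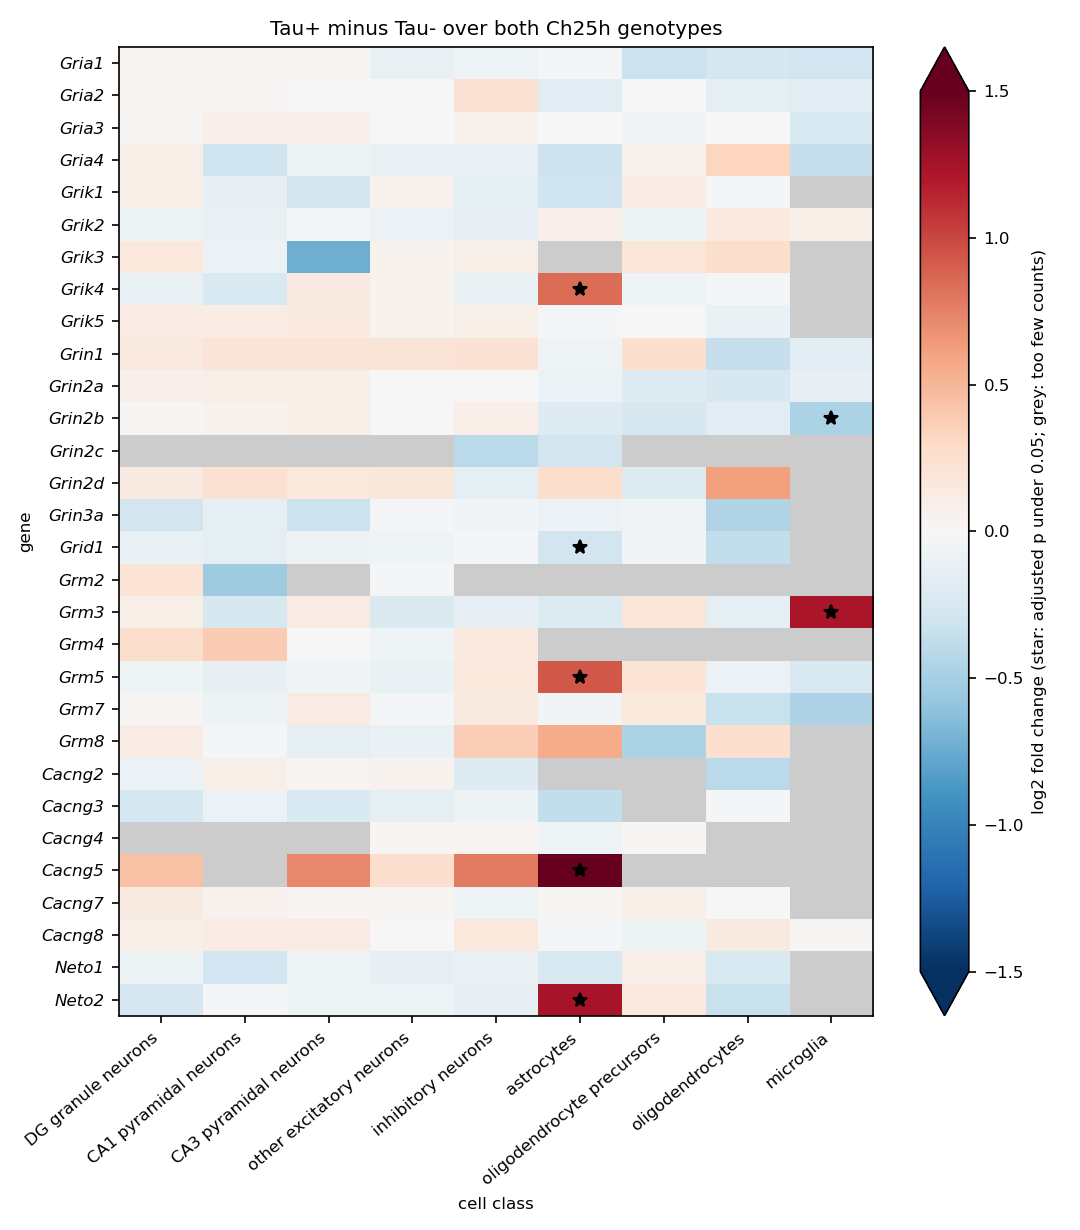
Colour gives the log2 fold change of Tau+ over Tau-, averaged over both Ch25h genotypes, for 30 genes (rows) in 9 classes (columns), with stars at an adjusted p under 0.05 and grey where counts were too few. The 7 stars lie in astrocytes (5) and microglia (2), and none in the 5 neuron classes.

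Astrocytes held 5 of the 7 calls, among 26 genes of the set tested there (2.82% of all astrocyte genes passed). Grik4 (chr9:42518135-42944493, minus strand, GRCm38) read 31.5, 31.3, 17.9 and 18.95 CPM in the 4 Ch25h+/+ Tau- libraries, 55.7, 42.6, 39.98 and 44.7 in Ch25h+/+ Tau+, 31.1, 28.7, 22.6 and 23.9 in Ch25h-/- Tau- and 32.3, 51.9, 50.2 and 46.1 in Ch25h-/- Tau+. Each of the 8 Tau+ libraries lay above all 8 Tau- libraries (log2 fold change 0.84, SE 0.14, edgeR adjusted p = 0.00346). The free RNA estimate covered 20.3% of its astrocyte UMIs. In Ch25h+/+ alone the log2 fold change was 0.91 (SE 0.20, edgeR adjusted p = 0.0394), and that call was lost without any of 8 libraries (Ch25h+/+ Tau+ replicate 1, Ch25h+/+ Tau+ replicate 2, Ch25h+/+ Tau+ replicate 4, Ch25h+/+ Tau- replicate 3, Ch25h+/+ Tau- replicate 4, Ch25h-/- Tau+ replicate 2, Ch25h-/- Tau+ replicate 4 and Ch25h-/- Tau- replicate 2; largest adjusted p 0.189).

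Neto2 (chr8:85636588-85700924, minus strand), a partner of kainate receptors, read 17.3, 18.97, 15.5 and 11.1 CPM in the 4 Ch25h+/+ Tau- libraries, 57.2, 43.9, 20.2 and 33.8 in Ch25h+/+ Tau+, 19.1, 19.7, 9.32 and 10.9 in Ch25h-/- Tau- and 44.9, 28.6, 13.9 and 34.9 in Ch25h-/- Tau+ in astrocytes. The Tau+ libraries exceeded all Tau- libraries in 7 of 8 cases (log2 fold change 1.24, SE 0.26, edgeR adjusted p = 0.0150). The exception was Ch25h-/- Tau+ replicate 3. Neto2 in astrocytes also differed between the sides of the division, replicates 3 and 4 minus 1 and 2 (log2 fold change -0.75, SE 0.17, edgeR adjusted p = 0.00494). Cacng5 (chr11:107874605-107915055, minus strand), a TARP of low abundance, read 0.788, 2.85, 0.471 and 1.18 CPM in the 4 Ch25h+/+ Tau- libraries, 3.32, 4.99, 3.59 and 7.52 in Ch25h+/+ Tau+, 1.41, 2.25, 1.33 and 0.683 in Ch25h-/- Tau- and 5.11, 4.86, 5.20 and 3.95 in Ch25h-/- Tau+. These values rest on 1 to 20 UMIs per library. All 8 Tau+ libraries lay above all 8 Tau- libraries (log2 fold change 1.80, SE 0.34, edgeR adjusted p = 0.00635), and with the free RNA estimate subtracted Cacng5 had too few counts to be tested. Only Tau+ libraries held enough Cacng5 counts to meet the filter on low counts, as Tau- libraries reached at most 2.85 CPM. The call and the separation of the libraries are therefore not independent of that filter. The calls of Grik4, Neto2 and Cacng5 over both genotypes were kept when any 1 library was left out. Replicates 1 and 2 alone did not call Grik4 or Cacng5, and replicates 3 and 4 alone did not call Neto2 or Cacng5.

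Grm5 (chr7:87584168-88134907, plus strand), a receptor coupled to calcium release, read 124, 145, 89.4 and 107 CPM in the 4 Ch25h+/+ Tau- libraries, 365, 273, 120.4 and 248 in Ch25h+/+ Tau+, 169, 128, 123 and 102 in Ch25h-/- Tau- and 233, 221, 122 and 296 in Ch25h-/- Tau+. It was high in 6 Tau+ libraries, while replicate 3 of both Tau+ groups stayed within the Tau- range (log2 fold change 0.93, SE 0.22, edgeR adjusted p = 0.0353). The free RNA estimate covered 34.1% of its astrocyte UMIs. The call was lost without any of 12 libraries, that is with any library left out other than Ch25h+/+ Tau+ replicate 3, Ch25h+/+ Tau- replicate 2, Ch25h-/- Tau+ replicate 3 and Ch25h-/- Tau- replicate 1 (largest adjusted p 0.0854). Grid1 (chr14:34820108-35583379, plus strand) read 260.0, 273, 269.7 and 273 CPM in the 4 Ch25h+/+ Tau- libraries, 192, 258, 224 and 226 in Ch25h+/+ Tau+, 271, 261, 296 and 316 in Ch25h-/- Tau- and 217, 245, 230.4 and 242 in Ch25h-/- Tau+. All 8 Tau+ libraries lay below all 8 Tau- libraries, by a small margin (log2 fold change -0.28, SE 0.07, edgeR adjusted p = 0.0296), and the call was lost when any 1 of Ch25h+/+ Tau+ replicate 1, Ch25h-/- Tau+ replicate 1, Ch25h-/- Tau+ replicate 4, Ch25h-/- Tau- replicate 3 or Ch25h-/- Tau- replicate 4 was left out (largest adjusted p 0.0781). The difference between the 2 tau effects was not called for any of the 5, with log2 interaction terms from -0.37 (Grm5) to 0.01 (Cacng5).

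**Figure D4:**
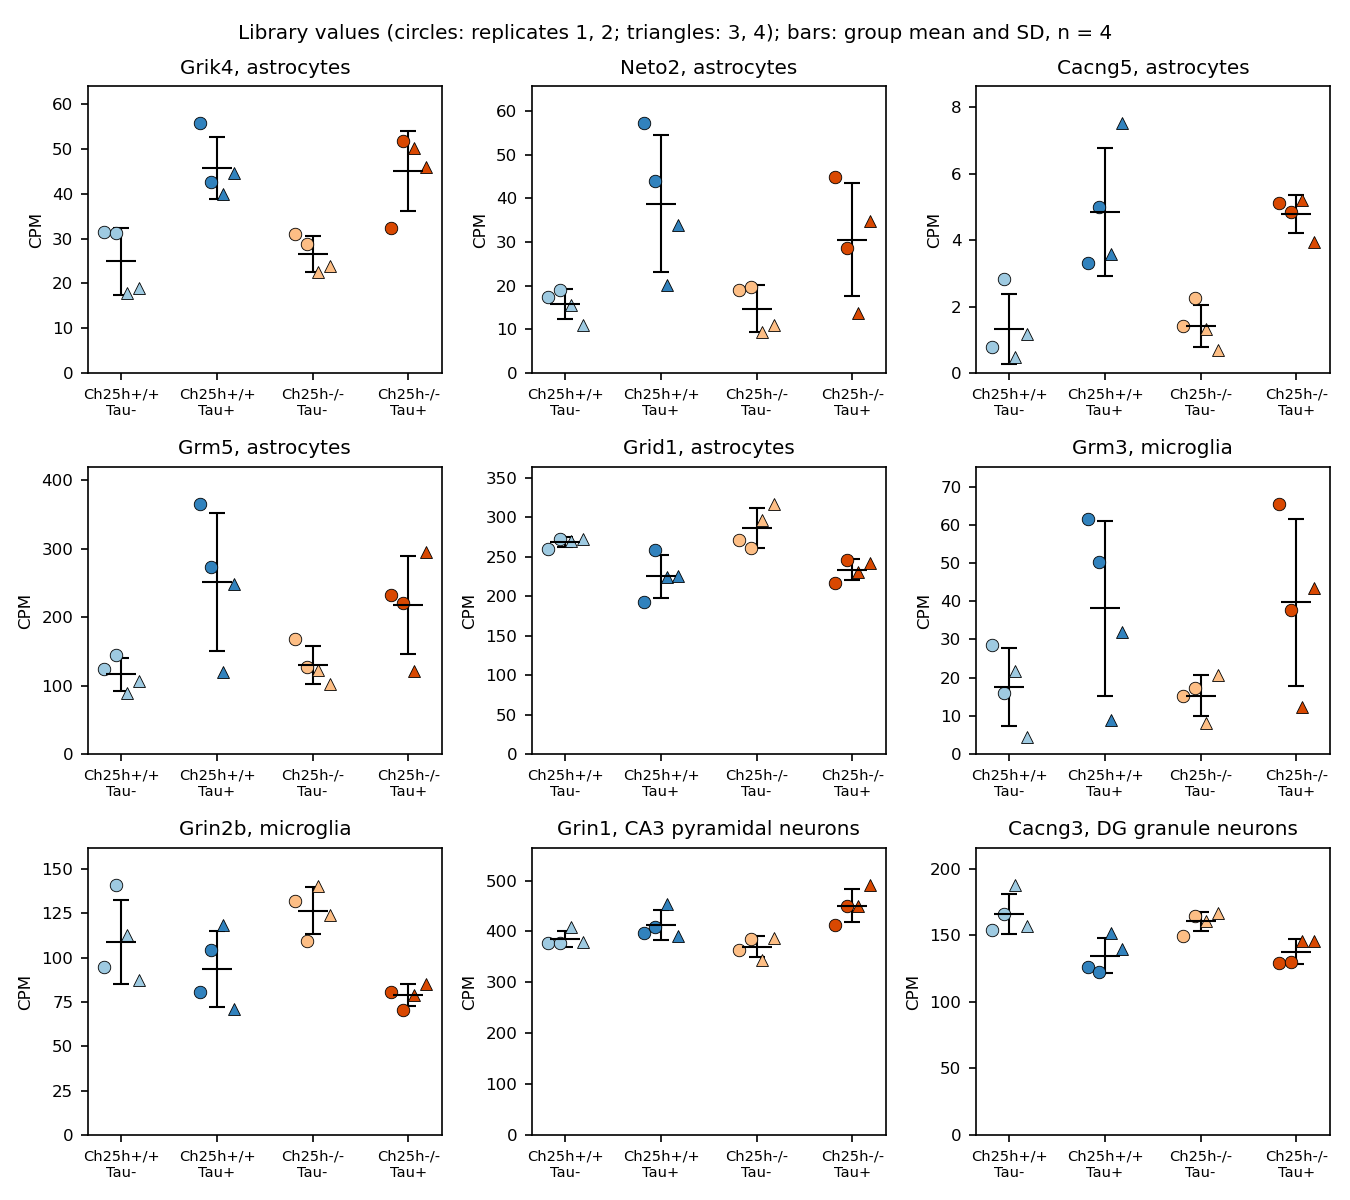
The y axes give CPM per library for 9 gene and class pairs in the 4 groups, with circles for replicates 1 and 2, triangles for replicates 3 and 4, and bars for the group mean and SD (n = 4). In astrocytes Grik4 and Cacng5 separate the 8 Tau+ from the 8 Tau- libraries, while Grm5 and Neto2 are lowest of their Tau+ groups in replicate 3. Cacng5 met the filter on low counts only through its Tau+ libraries, and Grm3 in microglia mainly through its Tau+ libraries.

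The make-up of the astrocytes also varied between libraries, and whether it moved with the values above was not tested. Astrocytes formed 3 clusters. The leading genes of the second, by fold over the largest, were Myoc, A2m, Sulf1 and Cd44. That ranking pooled all libraries, and more of the second cluster's nuclei came from Tau+ than from Tau- libraries. The second cluster held 4.39 to 10.7% of astrocyte nuclei in Ch25h+/+ Tau-, 14.9 to 54.7% in Ch25h+/+ Tau+, 6.62 to 10.7% in Ch25h-/- Tau- and 8.47 to 31.8% in Ch25h-/- Tau+. The genes of the set took no part in the clustering. Grik4 was 63.7 ± 21.7 CPM in the second cluster and 28.2 ± 9.50 in the largest, higher in the second in 16 of 16 libraries. Neto2 was 55.1 ± 27.9 CPM in the second cluster and 14.4 ± 3.71 in the largest, higher in 15 of 16, and Grid1 was 190.3 ± 43.1 CPM in the second cluster and 267 ± 22.7 in the largest, lower in 16 of 16. Grm5 was 225 ± 191 CPM in the second cluster and 143 ± 37.4 in the largest, higher in 8 libraries and lower in 8. Cacng5, at 4.91 ± 4.62 CPM in the second cluster and 2.21 ± 1.99 in the largest, was higher in 10 and lower in 5. Grin3a (369 ± 176 CPM in the second cluster and 102 ± 22.7 in the largest) and Gria1 (613 ± 252 CPM in the second cluster and 203 ± 52.7 in the largest) were also higher in the second cluster in all 16 libraries, and Gria2 (581 ± 323 CPM in the second cluster and 1861 ± 131 in the largest), Grm3 (682 ± 164 CPM in the second cluster and 1363 ± 132 in the largest) and Grin2c (137 ± 54.9 CPM in the second cluster and 298 ± 43.2 in the largest) lower in all 16.

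Within the largest cluster alone none of the 24 genes tested passed edgeR's test for tau over both genotypes, with 4 at an unadjusted p under 0.05, where 7.43% of all genes were. Of all genes 1 of 12124 passed there, and DESeq2 was not run. The log2 fold change there was 0.58 for Grik4 (SE 0.19), 0.43 for Neto2 (SE 0.19), 0.35 for Grm5 (SE 0.13) and -0.14 for Grid1 (SE 0.07). Their edgeR adjusted p ran from 0.437 to 0.659, and Cacng5 had too few counts. Within the second cluster, 4 of 17 genes passed, where 6.19% of all genes did. Grm5 (log2 fold change 2.12, SE 0.46, adjusted p = 0.0144) and Gria2 (1.23, SE 0.26, adjusted p = 0.00979) were higher in Tau+, and Grin3a (-1.19, SE 0.25, adjusted p = 0.00905) and Grik2 (-0.40, SE 0.11, adjusted p = 0.0241) lower. Grm5 in the second cluster read 87.3, 176, 44.8 and 84.9 CPM in Ch25h+/+ Tau-, 487, 474, 80.3 and 384 in Ch25h+/+ Tau+, 84.3, 130.4, 53.4 and 38.6 in Ch25h-/- Tau- and 442, 400.5, 83.7 and 552 in Ch25h-/- Tau+. Replicate 3 of both Tau+ groups again lay in the Tau- range, as it did for Gria2 and Grik2. For Grin3a the Ch25h+/+ Tau+ replicate 3 lay in that range and the Ch25h-/- Tau+ replicate 3 below it. The Tau- libraries held only 5 to 30 Grm5 UMIs there. These fits within clusters were added after seeing the data.

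**Figure D5:**
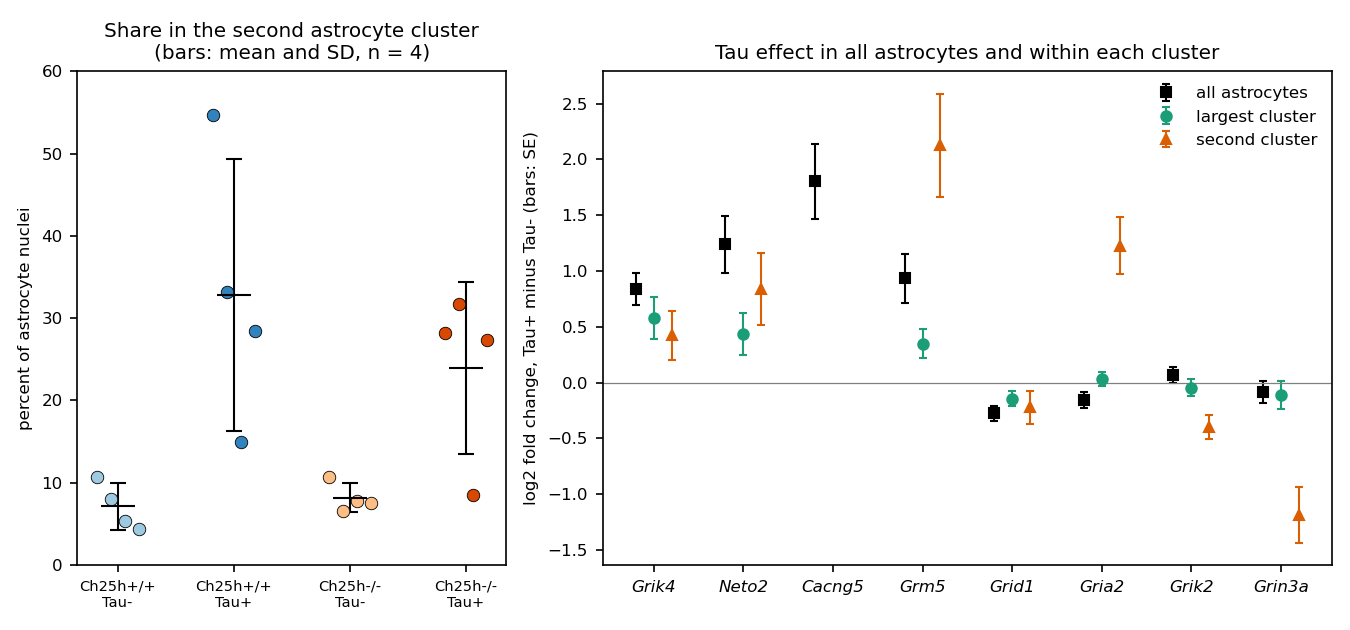
Left, the percentage of astrocyte nuclei in the second cluster by library and group, with bars for the mean and SD (n = 4). Right, the log2 fold change of Tau+ over Tau- with its SE for 8 genes in all astrocytes and within each cluster: Grik4, Neto2 and Grid1 lie nearer 0 within clusters, Grm5 and Gria2 are raised in the second cluster, and Cacng5, with too few counts to be fitted within clusters, is shown for all astrocytes only.

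Markers of other cell types were read beside the astrocyte values. All 7 neuronal genes used for the free RNA estimate had UMIs in astrocytes, with a summed 151 to 238 CPM in Tau+ libraries and 130.3 to 240.4 in Tau-. The 7 oligodendrocyte precursor markers, all with UMIs, summed to 69.5 to 135 CPM in Tau+ libraries and 45.4 to 83.3 in Tau-, with medians of 98.5 and 70.6. Precursors read Grik4, Neto2 and Grm5 at higher levels than astrocytes. The 8 CA1 pyramidal neuron markers, from the class that read Grm5 highest, summed to 101 to 179 CPM in Tau+ libraries and 92.4 to 125 in Tau-, with medians of 154 and 102. The 7 deep-layer markers summed to 967 to 1185 CPM in Tau+ libraries and 867 to 1064 in Tau-. For the lists of CA3 pyramidal and inhibitory neurons the Tau+ range lay within the Tau- range. The same held for the layer 6b and the upper-layer or entorhinal lists. The 11 markers of CA3 pyramidal neurons, the class that read Grik4 highest, summed to 1621 to 1846 CPM in Tau+ libraries and 1581 to 1977 in Tau-, with medians of 1765 and 1663. The 8 markers of inhibitory neurons, the class that read Neto2 highest, summed to 621 to 782 CPM in Tau+ libraries and 577 to 856 in Tau-, with medians of 689.6 and 709. The 10 DG granule neuron markers summed to 1223 to 1764 CPM in Tau+ libraries and 1142 to 1292 in Tau-, the 10 oligodendrocyte markers to 161 to 278 CPM in Tau+ libraries and 90.5 to 245 in Tau-, and the 10 microglial markers to 96.9 to 147 CPM in Tau+ libraries and 83.2 to 123 in Tau-, again all with UMIs. With the free RNA estimate subtracted, an alternative added after seeing the data, Grik4, Neto2, Grm5 and Grid1 were still called. The sums of the CA3, DG, inhibitory and deep-layer lists lay above that of the 7 neuronal genes in every library. How much of each list was RNA of the astrocytes themselves was not tested, so the sums do not measure neuronal RNA. The part of the precursor, neuronal and other markers in these results was not tested.

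In microglia, where 12 genes of the set could be tested (8.99% of all microglial genes passed), counts were low, with 1 to 58 UMIs per library for Grm3. Grm3 (chr5:9485541-9725170, minus strand) read 28.4, 15.9, 21.8 and 4.37 CPM in the 4 Ch25h+/+ Tau- libraries, 61.4, 50.3, 8.88 and 31.9 in Ch25h+/+ Tau+, 15.2, 17.2, 8.03 and 20.6 in Ch25h-/- Tau- and 65.3, 37.7, 12.3 and 43.4 in Ch25h-/- Tau+, and 6 of 8 Tau+ libraries exceeded all Tau- libraries (log2 fold change 1.23, SE 0.37, edgeR adjusted p = 0.0447). The estimate of free RNA covered 37.8% of its UMIs, and the call was kept with 3 of the 16 single libraries left out (Ch25h+/+ Tau+ replicate 3, Ch25h+/+ Tau- replicate 1 and Ch25h-/- Tau+ replicate 3) and lost with each of the other 13 (largest adjusted p 0.0993). At such low counts Grm3 met the filter on low counts mainly through the Tau+ libraries, where it was higher. Its call and the separation of the libraries are therefore not independent of that filter. Grin2b (chr6:135713233-136173511, minus strand) read 94.8, 141, 113 and 87.4 CPM in the 4 Ch25h+/+ Tau- libraries, 80.5, 104, 118 and 71.2 in Ch25h+/+ Tau+, 132, 109, 141 and 124 in Ch25h-/- Tau- and 80.7, 70.2, 78.9 and 85.1 in Ch25h-/- Tau+, with 6 of 8 Tau+ libraries below all Tau- libraries (log2 fold change -0.47, SE 0.13, edgeR adjusted p = 0.0217). The free RNA estimate covered all of its microglial UMIs, and the 7 neuronal genes behind that estimate summed to 222 to 338 CPM in Tau+ libraries and 273 to 488 in Tau-. The 8 markers of CA1 pyramidal neurons, the class that read Grin2b highest, summed to 349.6 to 478 CPM in Tau+ libraries and 409.6 to 559.5 in Tau-. Not all neuronal lists were lower in Tau+: the 11 CA3 markers summed to 377 to 556 CPM in Tau+ libraries and 352 to 446 in Tau-, and the 7 upper-layer or entorhinal markers to 671 to 871 CPM in Tau+ libraries and 551 to 678 in Tau-. The upper-layer or entorhinal sum lay above that of the 7 neuronal genes in every library. How much of the marker sums was RNA of the microglia themselves was not tested, so the sums do not measure neuronal RNA. The 10 microglial markers summed to 7927 to 12687 CPM in Tau+ libraries and 11035 to 14033 in Tau-, with medians of 10263 and 12783. With the estimate subtracted Grm3 was not called (adjusted p = 0.0808) and Grin2b had too few counts. The 10 oligodendrocyte markers, from the class that read Grm3 highest, summed to 258 to 439 CPM in Tau+ libraries and 118 to 413 in Tau-, and the 8 astrocyte markers to 280.1 to 408 CPM in Tau+ libraries and 334 to 518 in Tau-, all with UMIs. Their part in these results was not tested. In replicates 1 and 2 alone the log2 fold change was 1.46 for Grm3 (adjusted p = 4.94e-04) and -0.51 for Grin2b (adjusted p = 0.0423), and in replicates 3 and 4 alone 0.80 (adjusted p = 0.672) and -0.42 (adjusted p = 0.479). The Grin2b call was lost when any 1 of Ch25h+/+ Tau+ replicate 1, Ch25h+/+ Tau+ replicate 4 or Ch25h+/+ Tau- replicate 2 was left out (largest adjusted p 0.0761).

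Among neurons no gene of the set passed for tau over both genotypes in 140 gene and class pairs, with 24 at an unadjusted p under 0.05. Of all neuronal pairs 0.0490% passed and 8.67% were at an unadjusted p under 0.05. Grin1, the obligatory NMDA subunit (chr2:25291181-25319187, minus strand), had the lowest p of its family at 10 or more UMIs per library, in CA3 pyramidal neurons of Ch25h-/-. It read 378, 377, 409 and 379.6 CPM in the 4 Ch25h+/+ Tau- libraries, 398, 408, 454 and 390.2 in Ch25h+/+ Tau+, 364, 386, 343 and 387 in Ch25h-/- Tau- and 412, 451, 449 and 490.3 in Ch25h-/- Tau+. The 4 Ch25h-/- Tau+ libraries lay above the 4 Ch25h-/- Tau- libraries (log2 fold change 0.28, SE 0.07, edgeR adjusted p = 0.106). DESeq2 (adjusted p = 0.0189) and a fit with the division of the libraries as a term (adjusted p = 0.0440) called it. These were 2 of 9 other settings tried, and 0 of 16 fits with a library left out called it. Over both genotypes the Grin1 log2 fold change was 0.19 in CA3, 0.20 in CA1, 0.14 in DG, 0.19 in other excitatory and 0.22 in inhibitory neurons, with edgeR adjusted p from 0.133 to 0.433. A single direction in all 5 neuron classes was not particular to Grin1. Grik5 and Grin2b were also higher in all 5, and Grik2, Grin3a, Grid1, Cacng3, Neto1 and Neto2 were lower in all 5. These classes come from the same libraries.

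Cacng3, the TARP with the lowest p by the same rule, read 154, 166, 188 and 157 CPM in the 4 Ch25h+/+ Tau- libraries, 126, 122, 152 and 139 in Ch25h+/+ Tau+, 149.8, 165, 161 and 166 in Ch25h-/- Tau- and 129, 129.9, 146 and 146 in Ch25h-/- Tau+ in DG granule neurons. All Tau+ libraries but Ch25h+/+ Tau+ replicate 3 lay below every Tau- library (log2 fold change -0.26, SE 0.06, edgeR adjusted p = 0.122). It was called by DESeq2 (adjusted p = 0.0112), with the division as a term (adjusted p = 0.0202) and, in an alternative added after seeing the data, with the free RNA estimate subtracted (adjusted p = 0.0422). These were 3 of 9 other settings tried, and 0 of 16 fits with a library left out called Cacng3. Gria4, the AMPA subunit with the lowest p by the same rule, read 180.3, 207, 159 and 172 CPM in the 4 Ch25h+/+ Tau- libraries, 132, 138, 194 and 172 in Ch25h+/+ Tau+, 195, 173, 243 and 307 in Ch25h-/- Tau- and 185, 144, 174 and 176 in Ch25h-/- Tau+ in CA1 pyramidal neurons. Its Ch25h-/- groups overlapped (log2 fold change -0.43, SE 0.16, edgeR adjusted p = 0.485), and replicates 3 and 4 alone gave -0.64 (adjusted p = 0.0379) and replicates 1 and 2 alone -0.16 (adjusted p = 0.996).

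What the loss of Ch25h changed was asked within each tau state and over both. edgeR called 0 of the 227 pairs in Tau+ (0.00424% of all pairs passed), 0 in Tau- (0.00339%) and 0 over both (0.0136%), with 7, 13 and 6 at an unadjusted p under 0.05, where 3.2%, 3.23% and 2.73% of all pairs were, and 0 by DESeq2 in each. The lowest p was for Grm7, a presynaptic metabotropic receptor, in oligodendrocytes. It read 719, 703, 848 and 829 CPM in the 4 Ch25h+/+ Tau- libraries, 761, 777, 679 and 563 in Ch25h+/+ Tau+, 1148, 1171, 1466 and 837 in Ch25h-/- Tau- and 740.4, 865, 747 and 902 in Ch25h-/- Tau+. The 4 Ch25h-/- Tau- libraries spread widely, and 3 of them lay above every Ch25h+/+ Tau- library (log2 fold change 0.58, SE 0.14, edgeR adjusted p = 0.937). Replicates 1 and 2 alone gave 0.70 (adjusted p = 0.00783) and replicates 3 and 4 alone 0.46 (adjusted p = 0.798). The interaction of tau and Ch25h called 0 of 227 pairs (0% of all pairs), with 14 at an unadjusted p under 0.05 (3.89% of all pairs) and 0 by DESeq2.

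Of 53 other genes of the glutamate synapse (transporters, scaffolds, adhesion and trafficking proteins), 3 gene and class pairs were higher and 4 lower of 421 for tau over both genotypes, where 1.02% of all pairs passed. In the other 6 contrasts edgeR called none, with 9 to 61 pairs below 0.05 before adjustment (2.73% to 8% of all pairs). By DESeq2 there were 2 for tau in Ch25h+/+, 3 for tau in Ch25h-/- (0.46% of all pairs) and 0 in the rest. In astrocytes Lrrtm3, a synaptic adhesion protein, was higher (32.7 to 71.1 CPM in Tau+, median 47.98, against 15.8 to 39.4 in Tau-, median 32.4, log2 fold change 0.76, SE 0.17, edgeR adjusted p = 0.0194), and so was Shisa6, an AMPA receptor partner (30.03 to 140.2 CPM in Tau+, median 108, against 25.4 to 55.03 in Tau-, median 40.02, log2 fold change 1.23, SE 0.28, edgeR adjusted p = 0.0293). In microglia Frrs1l, which assists AMPA receptor assembly, was lower (12.6 to 19.2 CPM in Tau+, median 14.8, against 13.1 to 53.7 in Tau-, median 27.5, log2 fold change -0.97, SE 0.26, edgeR adjusted p = 0.0184), as were the pentraxin receptor Nptxr (7.33 to 22.8 CPM in Tau+, median 14.9, against 12.05 to 34.5 in Tau-, median 28.8, log2 fold change -0.86, SE 0.26, edgeR adjusted p = 0.0319) and C1ql3, a secreted synapse organizer (9.82 to 20.1 CPM in Tau+, median 14.9, against 8.74 to 43.9 in Tau-, median 27.1, log2 fold change -0.84, SE 0.25, edgeR adjusted p = 0.0343). The free RNA estimate covered 70.7% of the microglial UMIs of Frrs1l, 88.3% of those of Nptxr and 69.2% of those of C1ql3. At such low counts Frrs1l, Nptxr and C1ql3 met the filter on low counts mainly through the Tau- libraries, where they were higher. Their calls are therefore not independent of that filter. The scaffold Homer3, named after its values were seen, was higher in CA3 pyramidal neurons (50.9 to 66.3 CPM in Tau+, median 61.3, against 31.8 to 58.8 in Tau-, median 39.5, log2 fold change 0.54, SE 0.10, edgeR adjusted p = 0.0388). The set of 53 had a median log2 fold change of -0.04.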

How the data were processed

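The deposited count matrices hold UMI counts per gene and barcode for all barcodes, from 10x Genomics 3′ libraries, per the labels. Cell Ranger 4 wrote them per the file headers, while the submitters' processing notes list Cell Ranger 3.1.0 and the mm10 build. Whether intronic reads were counted is not given in the sources used here.

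Nuclei had at least 500 UMIs, at least 300 genes and at most 5% mitochondrial UMIs, 147873 in all. Scrublet scores (scanpy 1.11.5) removed 11045 as doublets. Nuclei were clustered by Leiden (leidenalg 0.10.2, resolution 1, 50 components, 20 neighbours, 3000 variable genes without the genes of the set or the 53 others), and 34 of 71 clusters, 6.19% of nuclei, stayed unnamed. UMIs were summed per library and class and tested with edgeR 4.0.16 (TMM, filterByExpr, robust quasi-likelihood, 1 mean per group, Benjamini-Hochberg over all genes of a class and contrast, two-sided, threshold 0.05). DESeq2 1.42.0 was an alternative, with other scaling, no filter, 1000 UMIs per nucleus, doublets put back, the division of the libraries, and each library left out. CPM of single libraries in group comparisons are TMM-scaled, and CPM by class are not. The free RNA estimate scales the profile of barcodes under 100 UMIs to marker genes of other cells. Coordinates are from GENCODE M21 (GRCm38), by Ensembl identifier.

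The set and all lists were chosen with earlier results of these data known. Named by rule were all genes called, the lowest p of each receptor family at 10 or more UMIs per library, and, by class, the gene of each family with the largest fold over the next class. Replicates are mice of a group, numbered in the order of deposit, and p-values of group comparisons measure the spread between them. Those of class comparisons, with the library as a block, measure the spread left after each library's own level is taken out. The fits were tested on simulated data before use. For tau over both genotypes they recovered 54% of 1.5-fold changes in CA1 and 44% in astrocytes, and 90% and 78% of 2-fold changes. Within Ch25h+/+ they recovered 34% and 16% of 1.5-fold changes. Smaller changes were not simulated for these tests, so a gene not called is not shown to be unchanged. The values of 1 other synapse gene that passed are not reported here.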

Additional observations from a re-analysis of the deposited data

Results flagged for a closer look

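Among 44 tests for a library far from the other 3 of its group, over the pairs of gene and class named by rule, 1 stood out, where chance alone flags some. Grin1 in CA3 pyramidal neurons read 409 CPM in Ch25h+/+ Tau- replicate 3, against 377 to 379.6 in the other 3 libraries. Its gap to the next library was 0.914 of the group's range, above Dixon's critical value for 4 samples.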

How the results depend on the processing

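For tau over both genotypes 7 pairs were called, and the count, which need not be of those pairs, was 5 to 10 under the other tools, scalings, filters and divisions tried. With the free RNA estimate subtracted, an alternative chosen after seeing the data, 5 were called, which were 4 of the 7 (Grik4, Neto2, Grm5 and Grid1 in astrocytes) and Cacng3 in DG granule neurons. With single libraries left out the count was 3 to 7, and the 6 libraries that moved the count by over 1.5 times were Ch25h+/+ Tau+ replicate 1 (3 pairs called) and Ch25h+/+ Tau+ replicate 4, Ch25h-/- Tau+ replicates 1 and 4 and Ch25h-/- Tau- replicates 3 and 4 (4 each). In Ch25h+/+ the 1 pair became 3 by DESeq2, 2 without the filter, 2 with the division of the libraries as a term, and 5 in each of replicates 1 and 2 alone and 3 and 4 alone, with 0 to 3 over single libraries left out (3 for replicate 3 of Ch25h+/+ Tau+, 2 for replicate 3 of Ch25h-/- Tau+, and 0 for any of the 8 named with Grik4). In Ch25h-/- the 0 pairs became 4 by DESeq2, 1 without the filter, 2 with the division, 3 in replicates 1 and 2 alone and 6 in 3 and 4 alone, with 0 to 2 over single libraries left out (1 when replicate 3 of Ch25h+/+ Tau+ was left out, 2 when replicate 3 of Ch25h-/- Tau+ was). For Ch25h loss in Tau- 1 pair was called in replicates 1 and 2 alone and 1 in 3 and 4 alone. The 0 receptor ratios became 0 to 1 over single libraries left out, 1 without Ch25h+/+ Tau- replicate 4. The 7 calls among other synapse genes, over all contrasts, became 13 by DESeq2 and 11 without the filter. Of these alternatives, the share of all pairs called is given only for DESeq2 and tau in Ch25h-/- (0.46%, against 0.143% by edgeR). A changed count is therefore not read as particular to the set. The causes were not tested.

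Of 308 values of single genes under the alternatives, 235 kept their side of the threshold and direction, 66 lost the call, 7 gained one and none reversed. The 308 pool results called in the main fit with results that were not. A call could be lost only among the former, so the share lost among calls is larger than over the 308. For tau over both genotypes in astrocytes, replicates 1 and 2 alone called Neto2 and Grm5 but not Grik4, Cacng5 or Grid1, and replicates 3 and 4 alone called Grik4 but not the other 4. No paired analysis was possible because the labels give no replicate numbers. In microglia 12 of the 32 genes had enough counts to be tested, and whether depth or low expression set that number was not tested.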
